A study of Mus musculus with 8 samples.

Results

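Lipoprotein lipase (Lpl) and 8 genes that work with it or resemble it were examined in whole-brain RNA of adult male mice. The 9 genes are Lpl, Lipc, Lipg, Lipe, Gpihbp1, Lmf1, Angptl4, Vldlr and Cd36, out of 19938 genes named on the arrays. Lpl was selected on its measured rise in these same arrays, and the others were added as its partners and relatives, so the values of Lpl are a description, and its call in the count below supports nothing. Each of 8 genes had 1 probe set paired with its symbol. Lipc, which encodes hepatic lipase, had none in the annotation used and is not analysed here. RNA came from brains of mice aged 2 to 4 months. The labels name 4 biological replicates TNF-/-, a genotype meant to lack the cytokine tumour necrosis factor (TNF) from development on, and 4 replicates TNF+/+, given as wild type C57BL/6. The RNA of each mouse was put on 1 Affymetrix Mouse Gene 1.0 ST array. The labels give neither the deleted part of the allele nor the strain of the TNF-/- mice, nor do they say whether the groups were littermates.

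Lipoprotein lipase is secreted and splits the triglycerides of lipoprotein particles, which frees fatty acids for the cells nearby. LMF1 helps it fold in the endoplasmic reticulum, GPIHBP1 carries it to the inner wall of capillaries outside the brain, and ANGPTL4 inactivates it. In brain, Lpl is known from neurons, among them those of the hippocampus, and from glia, and it is one of the genes that microglia switch on around damage. TNF is known to lower lipoprotein lipase in cultured mouse adipocytes.

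All values are the authors' log2 signals, on which a difference of 1 is a doubling, and every difference is the TNF-/- mean minus the TNF+/+ mean. Array medians lay between 5.03 and 5.11 and the 25th percentiles between 3.95 and 4.04, which serve below to say which probe sets were dim. Signal of Tnf, the targeted gene, went against the labels: it was 5.67, 5.87, 5.92 and 6.21 in the arrays labelled TNF-/-, against 4.48, 4.93, 4.24 and 4.47 in those labelled TNF+/+. Whether its probe set lies in the deleted part is not stated in the labels, so directions are given for the arrays as they are labelled. TNF+/+ arrays 3 and 4 stood apart on the first principal component (22.05 and 37.22, against -4.29 or lower in the other 6 arrays), and TNF+/+ array 1 had a high mean of cerebellar markers (7.55, against 5.99 to 6.09 in the other 7). Tests across probe sets used limma with Benjamini-Hochberg adjustment over all 35556, and a call is an adjusted p under 0.05.

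Lpl signal was higher in each array labelled TNF-/- than in any labelled TNF+/+, by 2.20-fold between the group means. Its signal was 6.10, 6.05, 6.08 and 6.50 in the TNF-/- arrays, against 5.04, 5.19, 5.04 and 4.90 in the TNF+/+ arrays. The groups did not overlap, with a gap of 0.86 between the lowest TNF-/- array and the highest TNF+/+ array. The highest TNF-/- value was in TNF-/- array 4, and the lowest TNF+/+ value was in TNF+/+ array 4, from another mouse. The means were 6.18 ± 0.21 in TNF-/- and 5.04 ± 0.12 in TNF+/+ (SD, n = 4 each), a difference of 1.14 ± 0.11 (SE). The gap was 0.87 after quantile normalization and 0.88 with arrays centred on their medians. In TNF+/+ arrays Lpl lay near the middle of all probe sets, with 3 of the 8 arrays below their own median, so it was not among the dim ones. In whole-brain RNA, a change in the number of cells of a type and a change in RNA per cell cannot be told apart.

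**Figure D1:**
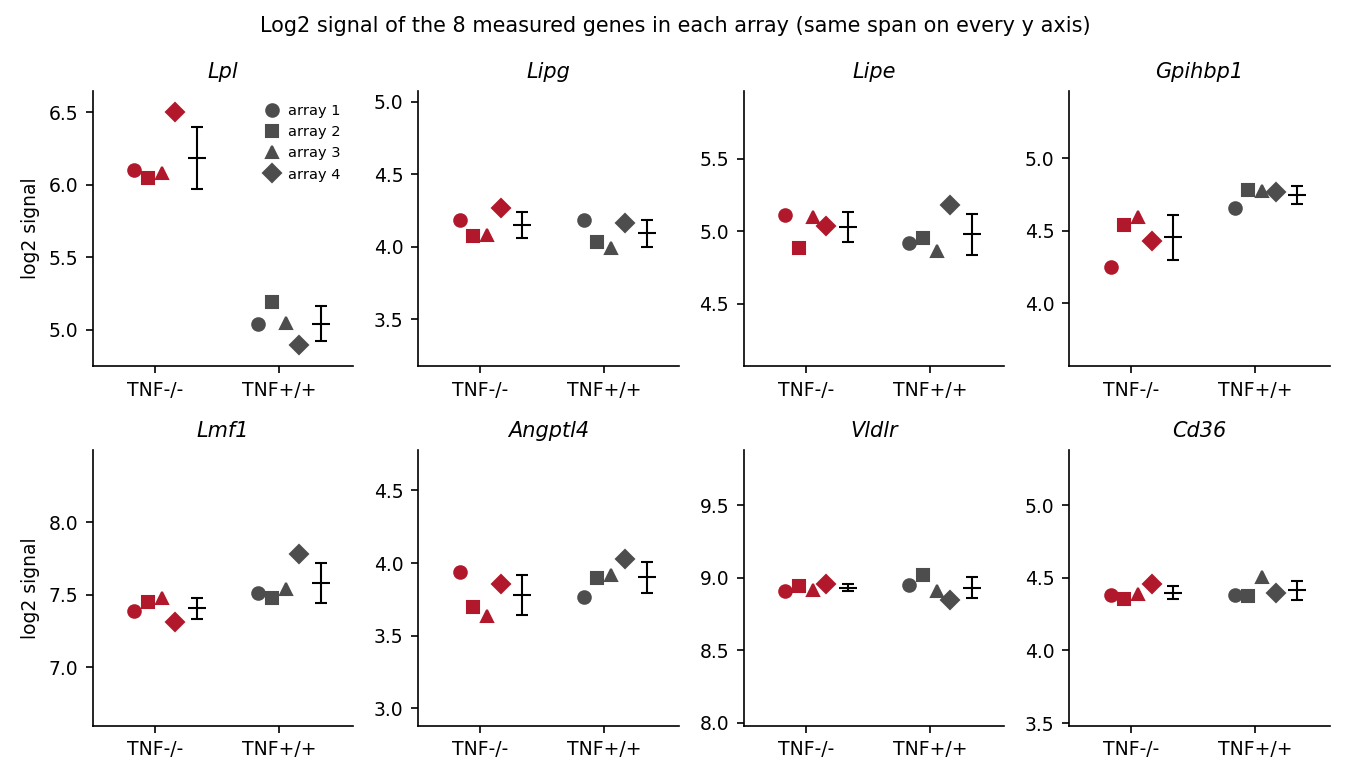
Log2 signal of the 8 measured genes in each array, TNF-/- on the left and TNF+/+ on the right of each panel; marker shapes are array numbers, and the bar beside the points is the mean with its SD (n = 4). Every y axis spans the same range, and Lpl, chosen for its rise, is the gene whose groups lie far apart (6.05 to 6.50 against 4.90 to 5.19).

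Of the 8 measured genes 1, Lpl, was past the limma threshold, beside 0.0816% of all probe sets (0.149% by SAM, the test that the series' design names). Lpl was chosen for this contrast, so nothing is read from that count. The other 7 gave 0 calls by limma and 0 by SAM. At an unadjusted p under 0.05 there was 1 of these 7, lower in TNF-/- (Gpihbp1), beside 4.9% of all probe sets in that direction. Their median difference was -0.02, and that of all probe sets was -0.01. The count with Lpl was 0 without TNF-/- array 1, or without any 1 of TNF+/+ arrays 1, 3 and 4, while the difference of Lpl ran from 1.03 to 1.19 with 1 array left out.

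The 2 members that act on the transport and folding of lipoprotein lipase, Gpihbp1 and Lmf1, had slightly lower signals in the TNF-/- arrays. Neither passed. Among the related genes of folding, cleavage and inhibition given below, 4 of 11 were higher. Gpihbp1, whose product shuttles the enzyme across capillary endothelium, had 4.25, 4.54, 4.60 and 4.43 in the TNF-/- arrays, against 4.66, 4.78, 4.78 and 4.77 in the TNF+/+ arrays. The groups did not overlap, and TNF-/- array 1 was the lowest of all. The difference was -0.29 ± 0.08 (SE), with a 95% interval of -0.48 to -0.10 (limma, adjusted p = 0.304; exact two-sided permutation p = 0.0286, the smallest that 4 against 4 can give). All 8 arrays had Gpihbp1 below their own median, and the difference was -0.22 without TNF-/- array 1.

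Lmf1, which encodes the maturation factor of the enzyme and of its relatives hepatic and endothelial lipase, had 7.39, 7.45, 7.48 and 7.32 in the TNF-/- arrays, against 7.51, 7.48, 7.54 and 7.78 in the TNF+/+ arrays. The groups were apart by only 0.003 as deposited (0.038 after quantile normalization), and TNF+/+ array 4 was the highest. The difference was -0.17 ± 0.08 (SE), with a 95% interval of -0.35 to 0.01 (limma, adjusted p = 0.483; exact two-sided permutation p = 0.0286). It was -0.10 without TNF+/+ array 4 and -0.09 without TNF+/+ arrays 3 and 4. Gpihbp1 and Lmf1 are thus 2 of 7 genes whose groups did not overlap with TNF-/- lower, against 3.48% of all probe sets, and no test was made of this count.

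Angptl4, the inhibitor, was dim, with signals below the 25th percentile of its own array in 7 of 8 arrays. It had 3.94, 3.69, 3.63 and 3.85 in the TNF-/- arrays, against 3.77, 3.90, 3.91 and 4.03 in the TNF+/+ arrays, so the groups overlapped. The difference was -0.12 ± 0.09 (SE), with a 95% interval of -0.32 to 0.07 (limma, adjusted p = 0.63). Lmf1 and Angptl4 lie on chromosome 17, as Tnf does, 253 and 90 places from it among 940 measured genes in the gene order of GRCm38.p6.

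The other lipases differed by less than the spread between arrays. Lipg encodes endothelial lipase, which acts mainly on phospholipids of high-density lipoprotein, and its signal was 4.18, 4.07, 4.08 and 4.26 in the TNF-/- arrays, against 4.18, 4.04, 3.99 and 4.16 in the TNF+/+ arrays. Its difference was 0.06 ± 0.07 (SE), with a 95% interval of -0.10 to 0.22 (limma, adjusted p = 0.783). Lipe encodes hormone-sensitive lipase, which works inside the cell on stored fat and belongs to another protein family than Lpl. It had 5.11, 4.88, 5.10 and 5.03 in the TNF-/- arrays, against 4.92, 4.95, 4.86 and 5.18 in the TNF+/+ arrays, a difference of 0.05 ± 0.08 (SE) with a 95% interval of -0.14 to 0.25 (limma, adjusted p = 0.839). In both genes the groups overlapped, and Lipg was below the median of its own array in all 8 arrays. A difference in signal of the size seen for Lpl, which was chosen for its rise, lies outside both intervals. Lipg signals were close to the 25th percentiles of the arrays (3.95 to 4.04), so its interval describes a dim signal and not the amount of RNA.

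The receptors that take up the particles or the freed fatty acids had overlapping groups. Vldlr, which encodes the very low density lipoprotein receptor, also a receptor for reelin in brain, had the narrowest interval of the 8 genes. It had 8.91, 8.95, 8.92 and 8.95 in the TNF-/- arrays, against 8.95, 9.02, 8.91 and 8.85 in the TNF+/+ arrays. The difference was -0.0003 ± 0.05 (SE), with a 95% interval of -0.12 to 0.12 (limma, adjusted p = 0.999). Cd36 encodes a fatty acid translocase of endothelium, macrophages and fat, and its signal was below the median of its own array in all 8 arrays. It had 4.38, 4.36, 4.39 and 4.46 in the TNF-/- arrays, against 4.38, 4.37, 4.51 and 4.40 in the TNF+/+ arrays, a difference of -0.02 ± 0.05 (SE) with a 95% interval of -0.14 to 0.11 (limma, adjusted p = 0.926).

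Genes that act around the same enzyme were taken from a list of 88, of which 80 had a probe set. Of these 80, 0 passed over all probe sets by limma and 0 by SAM, and their median difference was -0.005. At an unadjusted p under 0.05 there were 7 higher and 3 lower in TNF-/-, against 5.92% and 4.9% of all probe sets. Groups did not overlap for 3 genes that were higher and 1 that was lower in TNF-/-, against 3.15% and 3.48% of all probe sets. With 1 probe set used per gene, the differences ran from -0.27 to 0.28. That of Lpl lies outside this range, which comes with its choice for its rise.

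By role, 8 of 11 apolipoproteins were lower, with a median of -0.04. Over all probe sets, 45.2% were higher and 54.8% lower. Many of the apolipoprotein genes were dim: Apoc1, Apoc3, Apoa4 and Apob lay below the 25th percentile in all 8 arrays. Apoa1 and Apoa5 did so in 7, and Apoc4 was below the median in all 8. Apoc4, an apolipoprotein of triglyceride-rich particles, stood at -0.26 ± 0.08 (SE) and Apoa4 at -0.13 ± 0.07 (limma, adjusted p = 0.361 and 0.51). Apoe, the main apolipoprotein made in brain, had means of 11.2 in both groups and differed by -0.07 ± 0.07. Apoc2, the activator of the enzyme, had no probe set paired with its symbol alone.

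Among genes of folding, cleavage and inhibition, 4 of 11 were higher. Sel1l, part of the endoplasmic reticulum quality control that lets lipoprotein lipase leave the compartment in mouse adipocytes, had 9.55, 9.59, 9.76 and 9.78 in the TNF-/- arrays, against 9.45, 9.42, 9.41 and 9.54 in the TNF+/+ arrays. These groups did not overlap, and the difference was 0.22 ± 0.07 (SE; limma, adjusted p = 0.358). Sort1, which encodes the sorting receptor sortilin, stood at 0.18 ± 0.08 (limma, adjusted p = 0.457). Of the proprotein convertases, some of which cleave lipoprotein lipase or its inhibitors, Furin differed by -0.01 ± 0.09, Pcsk5 by -0.01 ± 0.05, Pcsk6 by -0.05 ± 0.08 and Pcsk7 by 0.13 ± 0.10.

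Lipoprotein receptors gave 5 of 9 higher with a median of 0.01. The reelin receptor gene Lrp8 stood at 0.15 ± 0.09 (SE), and Mylip, which encodes the ligase that marks this receptor family for degradation, at 0.19 ± 0.08 (limma, adjusted p = 0.577 and 0.457). Carriers of heparan sulfate, to which the lipase binds at the cell surface, gave 3 of 7 higher with a median of -0.002. The syndecan gene Sdc3 stood at 0.19 ± 0.08 and the glypican gene Gpc1 at -0.13 ± 0.13 (limma, adjusted p = 0.424 and 0.737).

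Inside the cell, 8 of 14 genes of triglyceride storage and breakdown were higher. Mgll, which encodes monoacylglycerol lipase, the enzyme that also degrades an endocannabinoid in brain, had 8.58, 8.64, 8.78 and 8.55 in the TNF-/- arrays, against 8.40, 8.39, 8.21 and 8.53 in the TNF+/+ arrays. The groups did not overlap, with a difference of 0.25 ± 0.08 (SE), while Dgat2, an enzyme gene of triglyceride synthesis, stood at -0.24 ± 0.08 (limma, adjusted p = 0.358 and 0.374). Fatty acid uptake and activation gave 8 of 12 higher with a median of 0.07. The transporter and acyl-CoA synthetase gene Slc27a2 stood at 0.25 ± 0.07, also without overlap, and the fatty acid binding protein gene Fabp5 at -0.27 ± 0.09 (limma, adjusted p = 0.331 and 0.361). Fabp5 had 2 probe sets, and only the brighter one is given.

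Transcription factors of lipid metabolism gave 5 of 11 higher and 0 at an unadjusted p under 0.05. Pparg, the regulator of fat cell genes that is known to act on Lpl in adipocytes, differed by -0.001 ± 0.06 (SE), and Ppara by -0.01 ± 0.06. Rxra and Ppargc1a, a partner receptor and a coactivator of these factors, each stood at 0.15 (SE 0.07 and 0.10; limma, adjusted p = 0.476 and 0.605). For Ppargc1a this is the brighter of 2 probe sets. The closest relatives of Lpl are Lipc and Lipg, and of the more distant ones in the pancreatic lipase family 4 of 5 were lower, with a median of -0.03. Liph stood at -0.08 ± 0.05 and Pnliprp1 at -0.06 ± 0.06 (limma, adjusted p = 0.561 and 0.713). Both were below the 25th percentile of their own array in all 8 arrays.

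**Figure D2:**
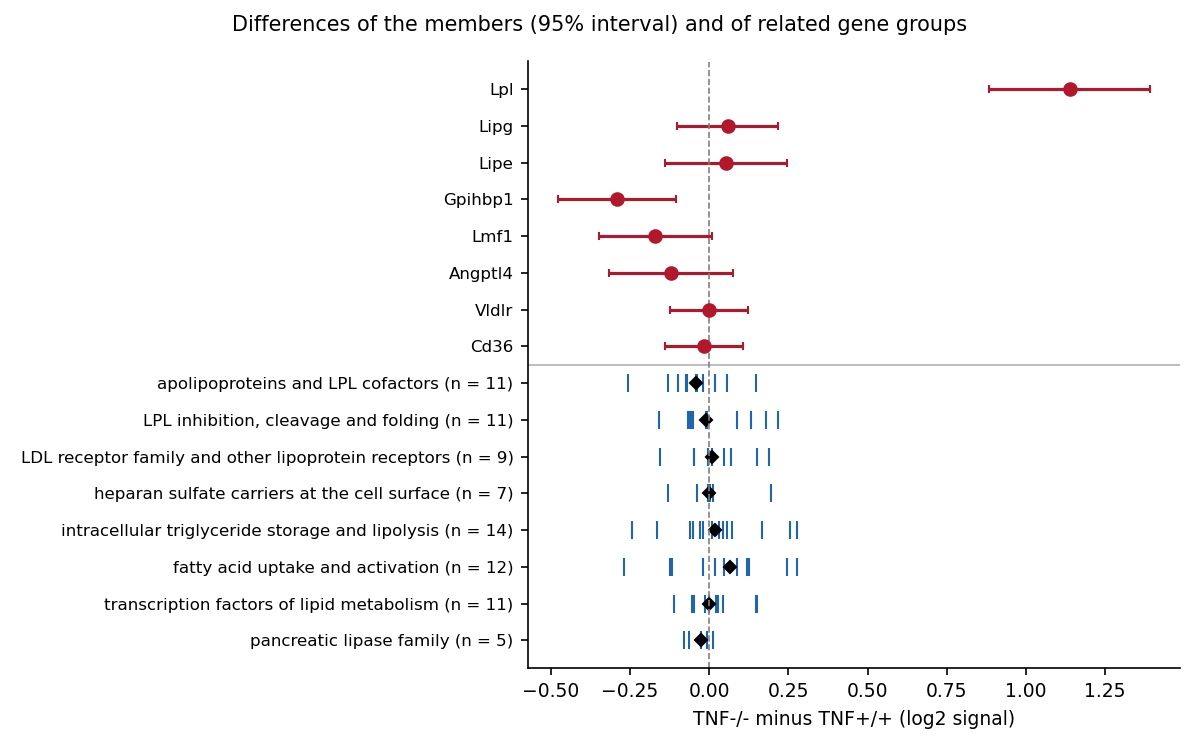
Differences in log2 signal, TNF-/- minus TNF+/+. Red points are the 8 measured genes with their 95% intervals, blue ticks are single genes of each related group and black diamonds are group medians. Lpl, chosen for its rise, stands at 1.14, and the 80 related genes lie between -0.27 and 0.28.

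The 20 measured genes nearest Lpl on chromosome 8 had differences from -0.27 to 0.44. Lpl was chosen for its rise and ranked 5 of 19938 genes by difference. That its neighbours fall short of it therefore comes with the choice. Of the 10 measured genes on each side, 0 of 20 passed by limma and 0 by SAM, with 2 higher and 1 lower at an unadjusted p under 0.05 (5.92% and 4.9% of all probe sets), and their median difference was 0.03. The nearest on each side, Ints10 and Slc18a1, which encode an Integrator subunit and a vesicular monoamine transporter, differed by -0.06 ± 0.09 and -0.13 ± 0.07 (SE). Next came Csgalnact1, an enzyme gene of chondroitin sulfate synthesis, and Atp6v1b2, a proton pump subunit gene, at 0.41 ± 0.09 and 0.01 ± 0.07. Csgalnact1 had 5.99, 6.10, 6.40 and 6.27 in the TNF-/- arrays, against 5.71, 5.89, 5.72 and 5.81 in the TNF+/+ arrays, with no overlap (limma, adjusted p = 0.241). The third gene on each side, Sh2d4a and Lzts1, differed by -0.04 ± 0.07 and -0.08 ± 0.06. Zfp868, a zinc finger gene 7 places away that was chosen after its values were seen, had the largest difference of the 20, 0.44 ± 0.08 (limma, adjusted p = 0.15).

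**Figure D3:**
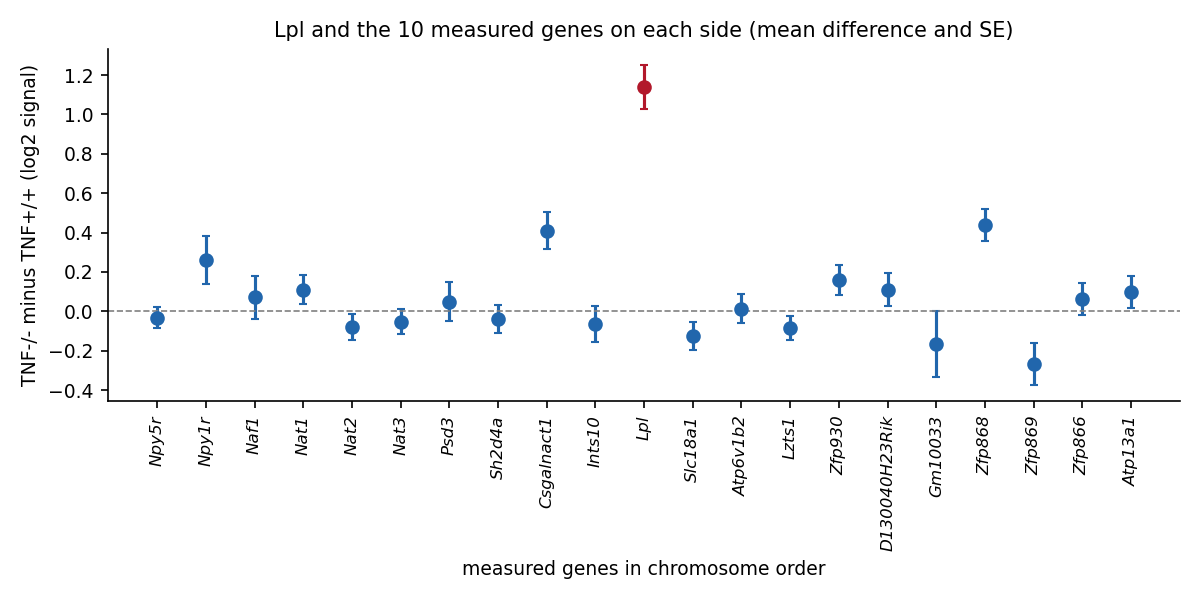
Differences in log2 signal (TNF-/- minus TNF+/+, points, with SE) of Lpl and the 10 measured genes on each side, in chromosome order. Lpl (red), chosen for its rise, is at 1.14, and Csgalnact1 and Zfp868 are the highest neighbours at 0.41 and 0.44.

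Genes with the pattern most like that of Lpl were found by Pearson's r over the 8 arrays among 9968 brighter genes. These were Rabep1 (r = 0.979), Catspere2 (0.975), Smarcal1 (0.972), Zcchc24 (0.971) and Tug1 (0.967). In all 5 the TNF-/- and TNF+/+ arrays did not overlap, as in 3.15% of all probe sets with TNF-/- higher. That comes with the choice, since the groups of Lpl lie apart. With the mean of each group removed, the r of these 5 with Lpl was 0.743, 0.536, 0.822, 0.763 and 0.934. Their own differences were 0.29 ± 0.05 (SE), 1.14 ± 0.09, 0.28 ± 0.06, 0.45 ± 0.07 and 0.27 ± 0.06, in the same order. Of all 9968 genes compared in that second way, the most alike were Rasgrf1 (r = 0.981), Atp13a5 (0.976), Fbxo32 (0.974), Mgat4c (0.969) and Rsrp1 (0.956), and in all 5 the groups overlapped. For Lpl, TNF-/- array 4 (6.50) lay far from the other TNF-/- arrays, so that array weighs heavily on the second r.

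Markers of cell types that may hold Lpl were set beside it. Of 121 marker genes in all lists, 0 passed by limma and 0 by SAM. At an unadjusted p under 0.05, 7 were higher and 10 lower, beside 5.92% and 4.9% of all probe sets. Over all probe sets, 45.2% were higher and 54.8% lower in TNF-/-, whether or not they passed. Those of reactive microglia, a known list that also includes Lpl, gave 4 of 12 higher in TNF-/- with a median of -0.01, and 0 at an unadjusted p under 0.05. Their list mean lay between 5.14 and 5.22 in the TNF-/- arrays and between 5.15 and 5.27 in the TNF+/+ arrays. Of these 12 markers, 7 were below the median in all 8 arrays, so the list mean rests in part on dim genes. Only 2 of the 12, Itgax and Cst7, were below the 25th percentile in all 8 arrays. Hippocampal neuron markers gave 6 of 11 higher, with list means of 6.35 to 6.44 in TNF-/- and 6.37 to 6.41 in TNF+/+. Oligodendrocyte precursors gave 4 of 8 higher (6.43 to 6.65 in TNF-/- and 6.50 to 6.63 in TNF+/+), astrocytes 4 of 8 (9.60 to 9.82 in TNF-/- and 9.65 to 9.76 in TNF+/+) and microglia 4 of 11 (6.13 to 6.33 in TNF-/- and 6.27 to 6.42 in TNF+/+). In these 5 lists the groups overlapped. Of the astrocyte and mature oligodendrocyte markers, which define brain tissue, 0 were below the median in all arrays.

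Fat and muscle hold much lipoprotein lipase elsewhere in the body. Of 7 adipocyte markers, Lipe included, 5 (Adipoq and Lep among them) were below the 25th percentile in all 8 arrays, and the list mean was 3.87 to 3.91 in TNF-/- and 3.89 to 3.97 in TNF+/+. Of 8 muscle markers 3 were below that percentile in all 8 arrays, and 7 had negative differences, with list means of 4.03 to 4.13 in TNF-/- and 4.16 to 4.21 in TNF+/+.

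Groups did not overlap in the list means of mature oligodendrocyte, meningeal, muscle and blood markers. None of their genes passed. Mature oligodendrocyte markers had negative differences in 7 of 7 cases, with list means of 9.12 to 9.23 in the TNF-/- arrays and 9.26 to 9.56 in the TNF+/+ arrays. Meningeal fibroblast markers had positive differences in 8 of 9 cases (6.31 to 6.37 in TNF-/- and 6.06 to 6.24 in TNF+/+), and choroid plexus markers in 8 of 8, though with overlapping groups (6.67 to 6.82 in TNF-/- and 6.45 to 6.73 in TNF+/+). Brain endothelium markers gave 3 of 9 higher and overlapped (6.78 to 6.91 in TNF-/- and 6.78 to 7.01 in TNF+/+), and blood cell markers had negative differences in 5 of 5 cases (3.77 to 3.97 in TNF-/- and 4.01 to 4.09 in TNF+/+). Pericyte and smooth muscle markers gave 5 of 8 higher (5.91 to 6.16 in TNF-/- and 5.83 to 6.01 in TNF+/+). The part of any of these cell types in the values of Lpl or its partners was not tested.

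**Figure D4:**
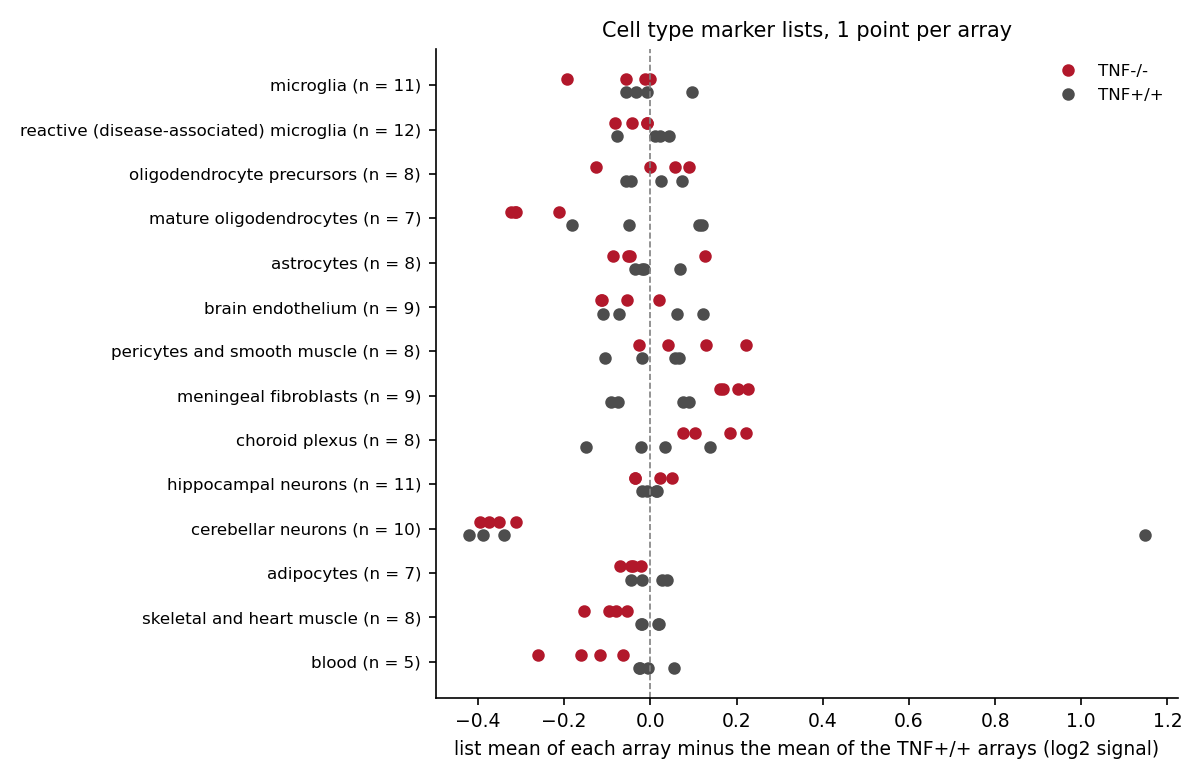
Mean log2 signal of each cell type marker list in each array, minus the mean of the 4 TNF+/+ arrays (1 point per array, TNF-/- in red above TNF+/+ in grey). Mature oligodendrocyte, meningeal, muscle and blood lists have groups that do not overlap, and the point at the far right is the cerebellar list in TNF+/+ array 1.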

How the data were processed

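Whole-brain RNA of 8 mice was measured on 1 array each. The deposited table holds the authors' log2 signal of 35556 probe sets; GCOS, GCRMA and Partek are listed in the submitters' processing notes, with no version, role or order, the log2 scale follows from the values (2.83 to 14.1), and no source used here gives a genome build. Values were used as deposited, without a filter, and 0 value columns were left unused. Sample titles gave the groups and the replicate numbers; whether replicates share litter or day is not stated. The platform annotation named the probe sets (1621 pair with several symbols, 12146 are not listed and 21789 pair with 1 symbol); 21698 of these last had their gene ID in a RefSeq table (assembly GRCm38.p6), and the brightest probe set stood for a gene. The comparison used limma 3.58.1 under R 4.3.3 (genotype term, eBayes, two-sided, p-values adjusted over the whole table by Benjamini-Hochberg), which was tested on simulated data. SAM used all 70 assignments. Python 3.11.15 with matplotlib 3.10.9 drew the plots. Precision is limited by having 4 arrays a group.

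The members, gene lists and tests were chosen with earlier results of these data known. Named genes are the members, Tnf, the 3 nearest measured genes on each side of Lpl, the 2 of each related group with the smallest p, and the 5 most like Lpl by each measure. Further list members are named for their known role, after their values were seen. Alternatives were other scalings, filters, variance models and weights, the replicate number as a block, SAM, medians, and leaving out arrays.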

Additional observations from a re-analysis of the deposited data

Results flagged for a closer look

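In 7 of 110 groups of 4 (named genes and marker lists) 1 array lay far from the rest, and chance gives about 6 such cases. Lpl was 6.50 in TNF-/- array 4, and the other 3 TNF-/- arrays lay between 6.05 and 6.10. The same array stood apart for the mean of mature oligodendrocyte markers (9.23), and for Rasgrf1 (9.24) and Mgat4c (7.50), which were chosen for following Lpl within the groups, so these 2 cases come with that choice. Among the TNF+/+ arrays, Gpihbp1 was low in array 1 (4.66), Sdc3 was high in array 2 (8.16) and the mean of cerebellar markers was high in array 1 (7.55).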

How the results depend on the processing

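The difference of Lpl kept its direction in all 17 alternatives, with 1.03 to 1.19 when 1 array was left out and 1.05 to 1.14 otherwise. The number of measured members called, 1 in the main analysis, was 0 to 1 with 1 array left out, 0 without TNF+/+ arrays 3 and 4 and 0 with the replicate block. Over all probe sets limma called 29, and 1 to 20 with 1 array left out (1 without TNF+/+ array 3), 0 without TNF+/+ arrays 3 and 4, 0 with the replicate block and 63 with testing limited to probe sets of 1 gene symbol, and SAM called 53. The deviations of same-numbered arrays from their group means correlated at 0.067 to 0.112. The TNF+/+ array most alike had the same number for TNF-/- arrays 1, 2 and 4, and was array 4 for TNF-/- array 3. These values do not settle whether the numbers are pairs, and the main analysis did not use them as pairs. None of the other 7 members, the 80 related genes or the 20 neighbours of Lpl was called under any alternative that could be run. The adjusted p of Gpihbp1 ran from 0.169 to 0.5 and that of Lmf1 from 0.362 to 0.691 (limma). Vldlr, near 0, changed sign in places: -0.028 to 0.028 with 1 array left out and 0.00094 by group medians. Cd36 ran from -0.038 to 0.014 with 1 array left out, and was 0.021 without TNF+/+ arrays 3 and 4 and 0.012 after quantile normalization. The cause of these changes was not tested. Averaging probe sets was not run, since each measured member has 1. Keeping only probe sets whose mean over the 8 arrays was above the median of such means removed Lipg, Lipe, Gpihbp1, Angptl4 and Cd36, so they have no value there.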
